A study of Mus musculus with 6 samples.

Results

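Of the 7120 genes in the deposited table, 10 are the Paneth cell products described here: Lyz1, Ang4, Itln1, Mptx1, Mptx2, Pla2g2a, Mmp7, Clps, Habp2 and Nupr1. They were chosen by name, as secreted, granule and associated genes of Paneth cells outside the alpha-defensin family, and all 10 were found. RNA came from crypts of the ileum, cut by laser from fixed sections of C57BL/6 mice aged 3 months. There were 3 libraries from wild-type mice (WT) and 3 from mice carrying a Tl1a transgene (Tl1a-tg), which raises the cytokine TL1A. The labels name no promoter for the transgene and do not state whether each library is a mouse of its own, so any spread between them may be technical.

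Paneth cells sit at the base of small intestinal crypts beside the stem cells and release granules of antimicrobial proteins into the crypt lumen. Wnt signals drive their maturation, and the transcription factors ATOH1 and SOX9 are needed for it. Lysozyme (Lyz1) cuts the bacterial cell wall, angiogenin 4 (Ang4) is a microbicidal ribonuclease, and intelectin 1 (Itln1) is a lectin. Mptx1 and Mptx2 are mucosal pentraxins, Pla2g2a belongs to the secreted phospholipases, and the metalloproteinase Mmp7 cuts mouse alpha-defensin precursors into their active forms. Colipase (Clps) is a cofactor of pancreatic lipase, Habp2 is a serine protease that binds hyaluronan, and Nupr1 is a small nuclear protein induced by stress and is not secreted.

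Some of these genes have close copies, and the sequences bear on how far their reads can be told apart. The coding sequences below were taken from the GENCODE M21 transcripts of the C57BL/6J reference, build GRCm38. The pair Mptx1 and Mptx2, both on chromosome 1, share 92.0% of 660 aligned coding bases, and 134 of the 750 stretches of 50 bases in the Mptx1 transcript also occur in Mptx2. Shown are coding bases 418 to 567, the window of 150 bases where they differ most. Capitals mark the 20 differing bases.
Mptx1: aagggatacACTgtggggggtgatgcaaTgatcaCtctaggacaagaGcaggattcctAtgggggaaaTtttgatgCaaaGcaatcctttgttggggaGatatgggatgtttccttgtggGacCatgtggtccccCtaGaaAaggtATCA
Mptx2: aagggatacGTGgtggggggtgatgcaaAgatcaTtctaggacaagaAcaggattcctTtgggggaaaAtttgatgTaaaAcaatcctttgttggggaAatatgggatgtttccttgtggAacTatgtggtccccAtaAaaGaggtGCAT

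Lyz1, on chromosome 10, has a neighbouring copy, Lyz2, which is the lysozyme of macrophages. Their coding sequences were identical at 95.1% of 447 bases, and 195 of the 1214 stretches of 50 bases in Lyz1 were shared. The window with the most differences runs from coding base 7 to 156, with 15 differing bases in capitals.
Lyz1: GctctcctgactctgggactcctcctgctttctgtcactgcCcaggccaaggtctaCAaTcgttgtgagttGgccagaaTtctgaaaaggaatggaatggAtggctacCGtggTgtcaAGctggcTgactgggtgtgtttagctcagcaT
Lyz2: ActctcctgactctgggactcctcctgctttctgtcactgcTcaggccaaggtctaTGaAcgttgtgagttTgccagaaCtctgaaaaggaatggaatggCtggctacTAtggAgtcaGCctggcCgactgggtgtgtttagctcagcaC

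Of the 50-base stretches of Ang4 (chromosome 14), 4.70% also occur in Ang2 or Ang5, and of those of Itln1 (chromosome 1), 1.01% occur in the gene Gm9765. Pla2g2a (chromosome 4), Mmp7 (chromosome 9), Clps (chromosome 17), Habp2 (chromosome 19) and Nupr1 (chromosome 7) shared 0 such stretches with any other gene. Reads of a copy could therefore enter the values of Lyz1, Mptx1 and Mptx2 more than those of the others. The RefSeq annotation of C57BL/6J lists Pla2g2a as a transcribed pseudogene and GENCODE as a polymorphic pseudogene. The C57BL/6 strain is known to carry a frameshift in this gene, and the reads measure its transcript.

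The deposited signal holds, for each gene, 1 fitted mean for either genotype, scaled by a factor that is particular to the library. Lyz1, for example, has deposited signals of 5259, 5738 and 4066 in Tl1a-tg replicates 1 to 3 and of 7784, 3447 and 8493 in WT replicates 1 to 3. The groups overlap, but every gene shows these same proportions between the libraries of a genotype, so they carry no information on replicate spread. Levels are therefore given below as the fitted mean at a common depth, in reads per library, without an SD. The errors are the standard errors and DESeq2 p-values of the authors' deposited table, whose model also held libraries beyond these 6. The fibroblast gene Dcn, for example, has a deposited mean of 140.1 over all libraries of the model but is fitted near 0 in both genotypes here. How far the added libraries moved the standard errors was not tested. In bulk tissue, fewer Paneth cells and less RNA per Paneth cell cannot be told apart.

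All 10 products were measured in both genotypes (fitted means of 10 or more in Tl1a-tg and in WT), as were 1379 genes in all. None passed the authors' test between genotypes, which called 0 of 10 at an adjusted p below 0.05. Over the whole table it called 61 of 1662 genes, or 3.67%, and 0 of the 817 genes with an adjusted p that were measured in both genotypes. At an unadjusted DESeq2 p below 0.05 the count was again 0 of 10, against 14.6% of 2580 genes. Only 828 of those 2580 were measured in both genotypes, as the 10 were, and the share among the 828 was not computed. By sign alone, 3 of the 10 had a positive log2 fold change (Nupr1, Clps and Mptx2) and 7 a negative one. Of all measured genes 62.9% were negative. The median log2 fold change was -0.26 over the 10 genes and -0.38 over all measured genes, and with the latter set to 0 it turned to 0.12.

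**Figure D1:**
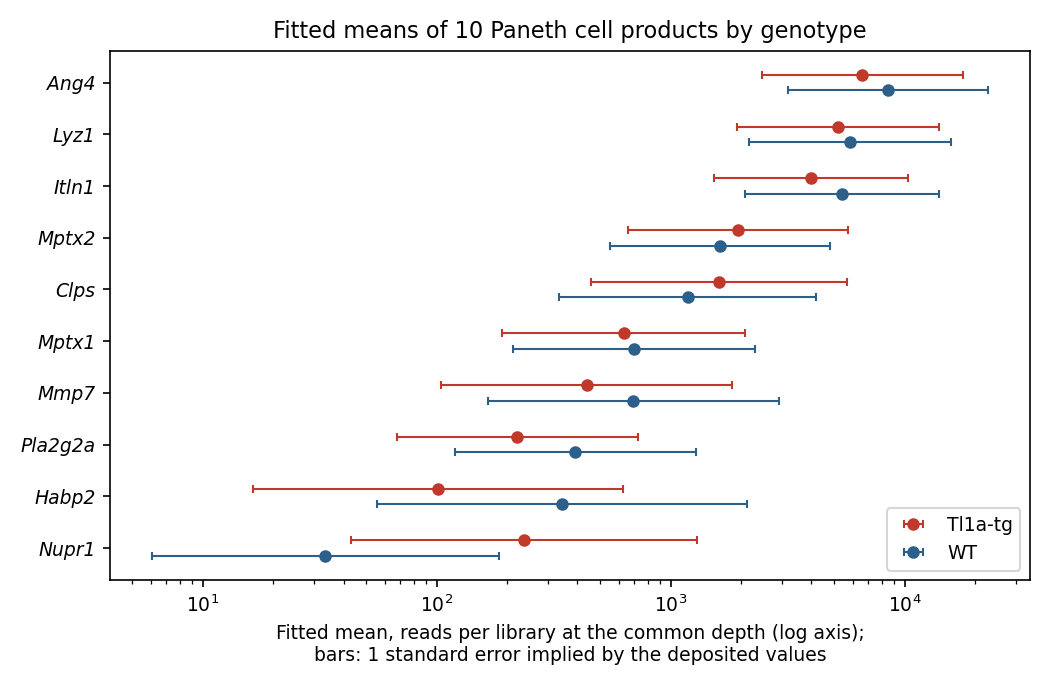
Fitted mean of each gene in Tl1a-tg (red) and WT (blue), in reads at a common depth per library, on a log axis. Bars span 1 standard error on the log2 scale, implied by the deposited values. The bars of the genotypes overlap for all 10 genes, and the order runs from Ang4, at 6603 and 8481, down to Nupr1 in WT, at 33.5.

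The ribonuclease Ang4, the lysozyme Lyz1 and the lectin Itln1 were the most abundant of the group. Ang4 led it, at 6603 fitted reads per library in Tl1a-tg and 8481 in WT, ranks 8 and 6 among all genes by reads. Lyz1 followed with 5207 and 5829, ranks 11 and 10. Itln1 had 3983 and 5420, ranks 13 and 11. All 3 were thus slightly lower in Tl1a-tg by their fitted means. By the authors' deposited table the log2 difference was -0.36 for Ang4, with a standard error of 2.01 (DESeq2 p = 0.857), -0.16 for Lyz1, with 2.03 (p = 0.936), and -0.44 for Itln1, with 1.95 (p = 0.819), all by DESeq2 with an adjusted p of 0.999. The sign of Ang4 and of Lyz1 turned when the median of all measured genes was set to 0, to 0.017 and 0.22. For Itln1 the 95% interval ran from a fold of 0.0522 to 10.3, so a change of several-fold in either direction lies inside it.

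The paired pentraxins had opposite signs. Mptx2, the more abundant, reached 1936 fitted reads in Tl1a-tg and 1631 in WT, ranks 23 and 26. Mptx1 reached 630 and 699, ranks 41 and 40. Mptx2 exceeded Mptx1 3.09-fold per kilobase of transcript in Tl1a-tg and 2.35-fold in WT. On the log2 scale the authors' deposited table lists 0.25 for Mptx2, with a standard error of 2.21 (DESeq2 p = 0.911), and -0.15 for Mptx1, with 2.43 (DESeq2 p = 0.951). Summed, which removes the split of shared reads between them, they had 2566 and 2329, a log2 ratio of 0.14. The sign of Mptx1 turned to 0.23 with the measured median at 0, and that of Mptx2 stayed positive under each scaling tried. Each scaling raised all values, so a positive sign could not turn.

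The upstream sequences of the pentraxins are related too. Over the 250 bases before the annotated start, from RefSeq on GRCm38.p6, they were identical at 72.4% of 272 aligned columns. Columns with a gap counted as not identical, so the paired bases alone are more alike than this. Shown are chr1:174330268-174330517 on the plus strand for Mptx1 and chr1:173277757-173278006 on the minus strand for Mptx2. GENCODE places the start of Mptx2 at base 173277777, inside the window shown for it, so by that annotation the window is not all upstream. Capitals mark matches on either strand to the core letters CTTTGA of TCF/LEF, the factors of Wnt signalling, ACAAAG of SOX factors, CAGCTG of ATOH1 and TATAAA of the TATA box.
Mptx1: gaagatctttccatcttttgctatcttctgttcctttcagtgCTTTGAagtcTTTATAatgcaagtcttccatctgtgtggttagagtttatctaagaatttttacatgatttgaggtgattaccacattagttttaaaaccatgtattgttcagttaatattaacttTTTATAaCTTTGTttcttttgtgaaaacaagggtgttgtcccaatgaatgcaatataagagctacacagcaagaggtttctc
Mptx2: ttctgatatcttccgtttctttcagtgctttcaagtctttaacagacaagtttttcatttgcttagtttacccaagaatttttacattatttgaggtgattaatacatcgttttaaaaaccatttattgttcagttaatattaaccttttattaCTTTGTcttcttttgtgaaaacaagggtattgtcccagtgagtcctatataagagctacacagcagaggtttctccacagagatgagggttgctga

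The SOX letters were found in both, and the TCF/LEF letters in Mptx1. Among the 8 of the 10 genes with an entry in the promoter table, taking the first listed start, the SOX letters occurred in 4 (Lyz1, Ang4, Mptx1 and Mptx2), the TATA letters in 2 (Mptx1 and Mmp7), the ATOH1 letters in 1 (Nupr1) and the TCF/LEF letters in 1. Of all 27025 promoters of this length, 16.5% held the SOX letters, 13.0% the TATA letters, 12.8% the ATOH1 letters and 14.0% the TCF/LEF letters. The letters describe the sequence and mark no site.

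The phospholipase and the metalloproteinase were less abundant, and their fitted means were lower in Tl1a-tg. Pla2g2a had 221 reads per library in Tl1a-tg and 391 in WT, ranks 114 and 64. Mmp7 had 437 and 693, ranks 53 and 41. For Pla2g2a the authors' deposited table lists a log2 difference of -0.82, standard error 2.42 (DESeq2 p = 0.734), and for Mmp7 one of -0.66, standard error 2.93 (DESeq2 p = 0.820). Neither difference exceeded its standard error. Per kilobase, Pla2g2a reached 282 in Tl1a-tg and 499 in WT, and Mmp7 410 and 649, so Mmp7 exceeded Pla2g2a on that scale in both genotypes.

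Colipase, the cofactor of lipases, went the other way by its fitted means. Clps had 1615 reads per library in Tl1a-tg and 1183 in WT, ranks 24 and 28. Its log2 fold change in the authors' deposited table, 0.45, had a standard error of 2.57 (DESeq2 p = 0.861). Pnliprp2, a lipase related to pancreatic lipase, was more abundant than Clps, with 4596 and 4377. Per 1 Clps read there were 2.85 Pnliprp2 reads in Tl1a-tg and 3.70 in WT. Of 18 markers of the exocrine pancreas, where colipase is also made, 2 were in the table. These were Pnliprp1, another relative of pancreatic lipase, with 162 and 102, and the ribonuclease Rnase1, with 25.7 and 43.2. The other 16 were not analysed here, and a part of pancreatic RNA in the Clps value was not tested.

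Habp2 in Tl1a-tg and Nupr1 in WT were the least abundant genes of the group, and these 2 had the most unequal fitted means. Nupr1 had 237 reads per library in Tl1a-tg and 33.5 in WT, 7.06-fold apart, and stood at rank 99 in Tl1a-tg and 2274 in WT. Habp2 had 101 and 344, 3.40-fold higher in WT, at ranks 564 and 80. The remaining 8 genes kept within a 1.77-fold difference. For Nupr1 the authors' deposited table lists 2.82 on the log2 scale, standard error 3.48 (DESeq2 p = 0.418, adjusted p = 0.994), and for Habp2 it lists -1.77, standard error 3.72 (DESeq2 p = 0.635, adjusted p = 0.999). Both differences were smaller than their standard errors. The shrunken values in the authors' deposited table were 0.20 and -0.11.

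**Figure D2:**
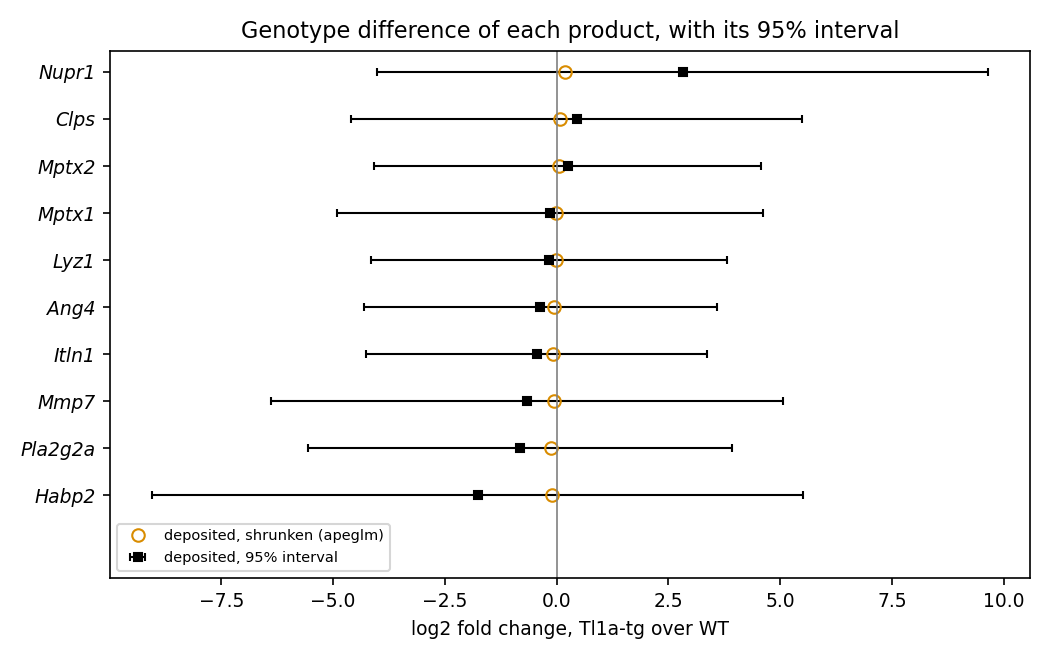
Deposited log2 fold change, Tl1a-tg against WT, from the authors' deposited table (black squares, bars for the 95% interval) and its shrunken value (orange circles). Every interval includes 0, and Nupr1, at 2.82, and Habp2, at -1.77, lie at the ends with the widest bars.

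The intervals were wide even for the most abundant genes. The standard errors of the 10 genes were 1.95 to 3.72 on the log2 scale and all below the median of 3.93 over measured genes. The 95% interval reached from 14.1-fold to either side for Itln1 to 156-fold for Habp2. Smaller differences were not detectable. The authors gave a p-value for all 10, against 60.0% of the measured genes. The dispersion that the standard errors imply, a squared coefficient of variation between libraries at high counts, was 2.73 for Itln1, 2.91 for Ang4 and 2.97 for Lyz1. It was higher for Nupr1 (8.73) and Habp2 (9.95). All 10 lay below the ceiling of 13, taken as the rounded median of the implied dispersions. At it lay 76.4% of all 7120 genes and 40.8% of the measured genes. None of these comparisons with other genes was matched for level. By reads the median rank of the 10 genes was 32.5 in Tl1a-tg and 34 in WT.

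**Figure D3:**
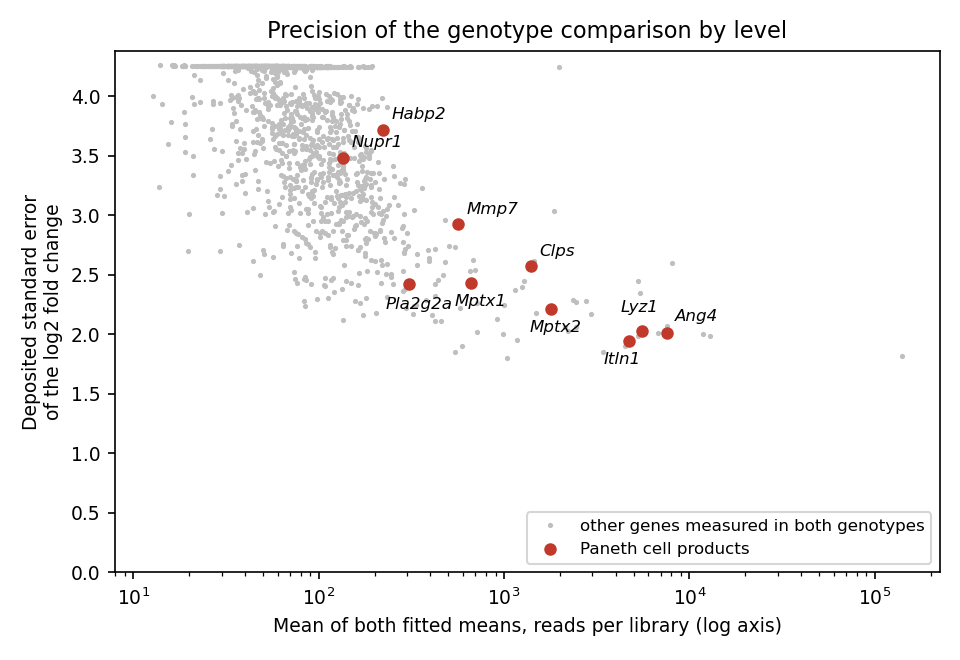
Deposited standard error of the log2 fold change against the mean of both fitted means (log axis), for the 10 genes (red) and the other genes measured in both genotypes (grey). The most abundant products, Ang4, Lyz1 and Itln1, lie near a standard error of 2, and Habp2 and Nupr1 lie above 3.

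The order of the 10 genes by level was similar in the genotypes but was not resolved between neighbours. By reads it ran Ang4, Lyz1, Itln1, Mptx2, Clps, Mptx1 and Mmp7 in both. It ended with Nupr1, Pla2g2a and Habp2 in Tl1a-tg and with Pla2g2a, Habp2 and Nupr1 in WT. Per kilobase of transcript Ang4 led more clearly, with 9313 in Tl1a-tg and 11961 in WT, against 4123 and 4615 for Lyz1 and 3491 and 4750 for Itln1. In each genotype, and on both scales, all 9 gaps between neighbours were smaller than the combined standard error that the deposited values imply, taking genes as independent.

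**Figure D4:**
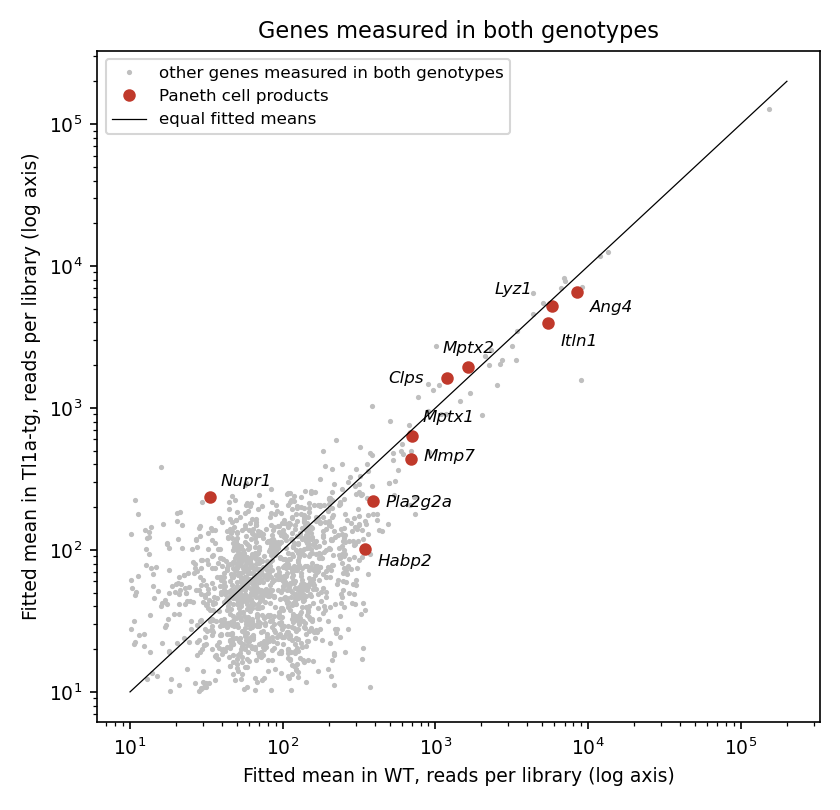
Fitted mean in Tl1a-tg against fitted mean in WT, both in reads per library on log axes, for the 10 genes (red) and the other genes measured in both genotypes (grey). The abundant products lie close to the line of equal means, Nupr1 lies above it and Habp2 below.

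The group was dominated by few genes. Ang4, Lyz1 and Itln1 made up 75.3% of its summed fitted reads in Tl1a-tg, against 79.9% in WT. The sum was 20970 in Tl1a-tg and 24703 in WT, or 4.36% and 4.65% of the fitted total. Within the group Mptx2 took 9.23% (Tl1a-tg) and 6.60% (WT) of the reads, Clps 7.70% and 4.79%, and Ang4 31.5% and 34.3%. For 11 alpha-defensins the sums were 47252 and 47339, so that the 10 genes had 0.444 reads per defensin read in Tl1a-tg and 0.522 in WT. No error can be given for these sums, since the deposited values hold no covariance between genes.

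Ratios between the genes were within 2-fold of each other in the genotypes for a small majority of pairs. How often this holds for pairs of other genes was not computed. Set against Lyz1, there were 1268 Ang4 reads per 1000 Lyz1 reads in Tl1a-tg, against 1455 in WT. For Itln1 there were 765 and 930. Mptx1 stood at 121 and 120. Mptx2 stood at 372 and 280, Clps at 310 and 203, Mmp7 at 84.0 and 119, and Pla2g2a at 42.4 and 67.1. The ratio thus differed least for Mptx1. It differed most for Nupr1, with 45.4 reads per 1000 in Tl1a-tg and 5.74 in WT, followed by Habp2 with 19.4 and 59.0. Of all 45 pairs, the ratio differed by less than 2-fold between genotypes for 26, and for 25 of the 28 pairs without Habp2 and Nupr1. These genes had the most unequal fitted means in these same data, so leaving them out was near certain to raise the share. The 25 of 28 is therefore a description and no evidence that ratios were kept. The widest gap was that of Habp2 to Nupr1, 0.428 in Tl1a-tg and 10.3 in WT. For 0 of the 45 pairs did the log2 difference exceed the root of the summed squared standard errors, again taking genes as independent. That count was fixed by the single genes and adds no evidence of its own. In units of their standard errors, the largest single differences were 0.81 for Nupr1 and -0.47 for Habp2.

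**Figure D5:**
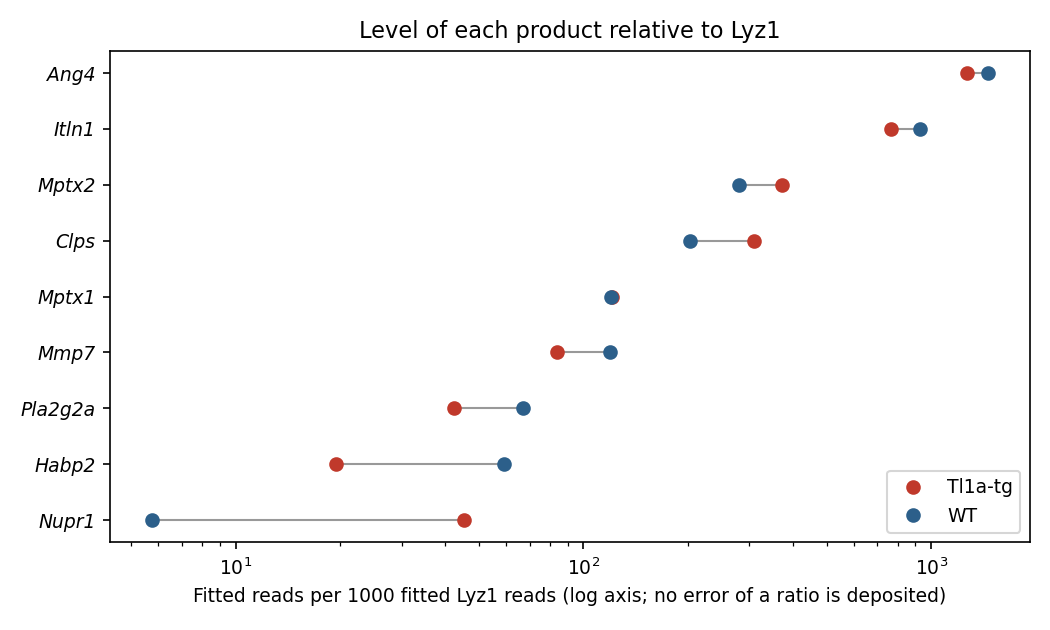
Fitted reads of each gene per 1000 fitted Lyz1 reads in Tl1a-tg (red) and WT (blue), on a log axis, joined by a grey line. The points of Mptx1 coincide at 121 and 120, and those of Nupr1 lie farthest apart, at 45.4 and 5.74.

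By distance between the log2 levels in the 2 genotypes, the gene nearest to Ang4 was the alpha-defensin Defa2 (0.14, fitted means 7057 and 9132). The nearest to Lyz1 was Gm15284 (0.22) and to Clps the alpha-defensin Defa21 (0.23). Pnliprp2 was the nearest to Itln1 (0.37) and Gm14851 to Mptx2 (0.46). The stem cell gene Olfm4 was the nearest to Mptx1 (0.11), the epithelial plakin gene Eppk1 to Pla2g2a (0.15) and the translation elongation factor gene Eef2 to Mmp7 (0.19). Pcbp1, which encodes an RNA-binding protein, was the nearest to Habp2 (0.16) and the glycosyltransferase gene Galnt10 to Nupr1 (0.22). With 1 value per genotype this likeness is one of level in 2 points.

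Family relatives of the 10 genes were mostly far less abundant. Of 46 listed, 17 were in the table and 9 measured in both genotypes, and 0 were called in either direction. Lyz2 was fitted at 0.193 in Tl1a-tg and at 0.544 in WT, so reads assigned to the lysozymes were almost all assigned to Lyz1. After Pnliprp2 the most abundant relatives were the phospholipase gene Pla2g2f, with 303 and 266, and the ribonuclease gene Rnase4, with 176 and 214. The median log2 fold change of the 9 was -0.28, and 0.10 with the measured median at 0. It leaves out the genes not measured in both genotypes. Of all 17, 4 were fitted below 1 in Tl1a-tg and 8 in WT.

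Genes that direct Paneth cell identity and granule maturation gave 18 of 26 in the table and 10 measured in both genotypes, with 0 called in either direction. The log2 fold change was below 0 for 8 of the 10, against 62.9% of all measured genes, with a median of -0.48, or -0.10 with the measured median at 0. Genes not measured in both genotypes are left out of this count, so it does not describe the whole list. Of all 18, 6 were fitted below 1 in WT and 2 in Tl1a-tg. Cd24a, which encodes a surface protein of Paneth cells, was fitted at 493 (Tl1a-tg) and 906 (WT), and the transcription factor gene Sox9 at 432 and 524. The kallikrein gene Klk1 had 281 and 298. Their DESeq2 p in the authors' deposited table was 0.729 for Cd24a, 0.915 for Sox9 and 0.975 for Klk1.

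Other antimicrobial and defence products of the crypt gave 8 of 18 in the table and 6 measured in both genotypes, and 0 were called in either direction. The log2 fold change was above 0 for 3 of the 6 and below it for the other 3. The lectin gene Reg4 was fitted at 1996 reads (Tl1a-tg) and 2244 (WT), close to those of Mptx2 in Tl1a-tg. Pigr, the receptor that carries antibodies across the epithelium, had 947 and 888, and the antibacterial lectin gene Reg3g had 357 and 360. The median of the 6 was 0.04, or 0.42 with the measured median at 0.

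Markers of other cells were checked beside these values. The sum of fitted means over the listed goblet cell genes was 12848 in Tl1a-tg and 13434 in WT, led by the mucin gene Muc2, and over the stem cell genes 1136 and 969. The sums were more unequal for the scarcer types. They were higher in Tl1a-tg over 5 enterocyte genes (220 and 58.5) and 4 fibroblast genes (200.05 and 54.6). They were lower there over 4 tuft cell genes (24.3 and 262) and 3 enteroendocrine genes (29.1 and 114). Of 6 listed mast cell genes only Kit was in the table (175 and 363), and Kit alone does not show that mast cells were present. Single genes make up much of such a sum, as Vil1 of enterocytes with 138 and 12.6, for which the authors' deposited table gives a standard error of 3.24 on the log2 scale (DESeq2 p = 0.286). No error can be given for the sums, and 0 genes of these lists were called. Of 3 macrophage genes, 3 were fitted below 1 in Tl1a-tg and 2 were in WT, where Cd74, of antigen presentation, had 76.0. The part of these cells in the differences of the 10 genes was not tested.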

How the data were processed

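RNA-seq of laser-cut ileal crypts was deposited for 3 WT and 3 Tl1a-tg libraries, made with a stranded kit per the labels' protocols. The submitters' processing notes name DESeq2, RSEM 1.2.15, Bowtie2 2.1.0, Trimmomatic and FastQC, without role or order. The sources used here name no genome build or annotation. The deposited signal, called normalized counts in its sheet name, gave the same ratio between libraries of a genotype for every gene, with a relative range of at most 1.67e-14. Library factors with a geometric mean of 1 (0.591 to 1.46) were solved from it, and fitted means divided by them. The depth in reads is unknown, so counting intervals were not computed.

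The log2 fold changes, their standard errors, the Wald score (fold change over standard error) and the p-values are those of the authors' deposited tables, from DESeq2. The planned limma test needs values of separate libraries and was not run. Intervals are 1.96 standard errors to each side. Dispersions were solved from the deposited standard errors and fitted means, holding means at 0.5 or above in the weights. The code was tested on simulated means, with standard errors made by the same formula that it inverts. That test simulated no counts and could not show that the formula holds for the authors' model. Transcript lengths (longest coding transcript, GENCODE M21) matched 6797 of 7120 gene names. Scripts ran in Python 3.11.15 with numpy 2.4.6, pandas 2.3.3, scipy 1.17.1 and biopython 1.88.

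The genes, companion lists and tests were chosen with earlier results of these data known. Named are all 10 genes, from the companion lists the 3 with the highest mean, and for each of the 10 the gene nearest in level. Cd74 and Lyz2 are among the 3 highest of their list. Lgr5, Lypd8 and Defb1 are named outside this rule, as unequal genes of their lists. Motif letters and sequence windows were chosen after the data were seen. Alternatives tried were other scalings, shrinkage, a pseudocount, a stricter minimum, another adjustment, ranks per length and another reference gene.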

Additional observations from a re-analysis of the deposited data

How the results depend on the processing

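No paired analysis was possible because the deposited table holds no value of its own for any library, and for the same reason leaving out replicates in turn was not run. Of 40 recomputed fold changes (10 genes, 4 settings), 37 kept their direction. Much of that count was fixed in advance, so it does not measure robustness. A pseudocount on both fitted means cannot change a direction. Leaving the ribosomal RNA precursor Rn45s out of the total added 0.094 to every gene. That is less than the smallest log2 fold change in size among the 10, -0.15 for Mptx1. The 3 that reversed did so with the median of all measured genes set to 0, which gave 0.22 for Lyz1, 0.017 for Ang4 and 0.23 for Mptx1, and moved the median of the 10 genes from -0.26 to 0.12. This setting adds the 0.38 by which that median lay below 0. Without Rn45s, the ribosomal RNA precursor, in the total, the 10 genes took 5.93% in Tl1a-tg and 6.54% in WT, against 4.36% and 4.65%. Ranked per transcript length, their median rank was 25 and 27, against 32.5 and 34. With Itln1 in place of Lyz1 as the reference, the median size of the log2 difference in ratio was 0.38 against 0.50. The count of called genes was 0 by the DESeq2 adjusted p as deposited, in the apeglm table and readjusted over 2580 genes, where the smallest adjusted p of the 10 was 0.961, and 0 at an unadjusted p below 0.05. Differences under about 14.1-fold were not detectable for any of the 10.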

Other observations

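The authors' deposited table also gives a mean per gene over all libraries of their model. Genes read in only 1 genotype set the smallest contribution that these 6 libraries make to it, about 0.0669 per fitted read in each genotype. On that scale the 6 libraries account for 88.7% of the deposited mean of Habp2, 81.7% for Itln1, 76.3% for Mptx1 and 75.5% for Nupr1. They account for 57.5% for Lyz1, 55.2% for Ang4 and 46.3% for Pla2g2a. Over all measured genes the median was 68.3%, and 29.4% of these genes had under 50%. The rest of each mean comes from libraries not analysed here.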
